A study of Mus musculus with 8 samples.

Results

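The genes described are those of 10 enzymes: the 3 enzymes of serine synthesis (Phgdh, Psat1, Psph), 6 enzymes of serine and folate one-carbon metabolism (Shmt1, Shmt2, Mthfd1, Mthfd2, Mthfd1l, Aldh1l2), and asparagine synthetase (Asns). Their probes were picked by gene name alone, which gave 15 probes of 55681, and no measured value entered the choice of probes. The genes themselves were chosen with earlier results of these data known. All 15 probes were well above background on all 8 arrays, so all 10 genes stayed among the 20839 genes tested. The cells were mouse embryonic fibroblasts (MEFs) of genotype Csk-/-, which lack the kinase that restrains Src family kinases, transfected with pBKT2-c-Src, a vector that makes c-Src in the presence of doxycycline (Dox). Total RNA was taken after 0, 6, 24 and 72 h of c-Src expression with 1 µg/ml Dox, on 2 arrays per time. All 4 groups therefore share the loss of Csk and the vector. The labels name no parental line, no clone and no Dox-treated cells without c-Src, so c-Src, Dox and time in culture cannot be told apart. Nor can these be told apart from the row of the slide, which followed time. Column and row are names used here for the first and the second position number of an array in the file headers.

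Serine is made from the glycolytic intermediate 3-phosphoglycerate in 3 steps. The SHMT enzymes then split serine into glycine and a one-carbon unit bound to folate, SHMT1 mainly in the cytosol and SHMT2 in mitochondria. Mitochondrial MTHFD2 and MTHFD1L carry that unit to formate, and cytosolic MTHFD1 takes formate up again for purine, thymidylate and methionine synthesis. ASNS makes asparagine from aspartate and glutamine, and its gene is a classical target of the transcription factor ATF4, which is translated more when amino acids run short or the endoplasmic reticulum is stressed. ATF4 is also known to act on several genes of serine synthesis and of the mitochondrial folate pathway.

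Levels are log2 of the processed signal (an intensity) minus the array's 75th percentile, so a level of 0 equals that percentile, and a level is compared only within a probe. Differences between times are log2 differences ± standard error (SE) from limma, with 2 arrays per time and p-values adjusted by the Benjamini-Hochberg method over all 20839 genes. A gene was called at an adjusted p below 0.05. The labels state that samples were run in duplicate but not that the duplicates were separate cultures, so the p-values cover only how far the arrays of a time lie apart, which may be technical. In a bulk sample, fewer cells of a type and less RNA per cell cannot be told apart.

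Across the arrays the 75th percentile of signal was 370.3 to 393.0, 49.9% to 54.7% of spots were well above background, and replicate arrays correlated across genes with r of 0.9964 to 0.9975. The induced gene Src had levels of -1.35 and -1.19 at 0 h, 3.46 and 3.49 at 6 h, 3.29 and 3.31 at 24 h, and 3.03 and 3.02 at 72 h, a fold of 26.9, 23.8 and 19.6 over 0 h at the 3 later times. On none of the 8 arrays was Csk well above background. Fibroblast markers were well above background on all arrays for 9 of 10 listed genes, with Thy1 on none. Their summed level, in units of the 75th percentile, was 969 to 1038 at 0 h, 1032 to 1051 at 6 h, 870 to 905 at 24 h and 811 to 819 at 72 h. At 72 h 8 of the 9 tested fibroblast genes were lower than at 0 h, and Vim was higher. Of other cell types, the epithelial genes Cdh1 and Epcam, the leukocyte gene Ptprc, the macrophage gene Adgre1, the endothelial gene Cdh5 and the liver genes Alb, Ttr and Apoa1 were well above background on no array. Other genes of those lists were detected: Pecam1 and Kdr (endothelium), Krt8, Krt18, Krt14 and Krt5 (epithelium), Csf1r (macrophages) and Cyp2e1 (liver) on all 8 arrays, Cd68 (macrophages) on 5, Tek (endothelium) on 4 and Aif1 (macrophages) on 1. Csf1r, a macrophage receptor gene, was higher than at 0 h by 1.85-fold at 6 h, 1.75-fold at 24 h and 1.35-fold at 72 h, all called. Cd68 was not well above background at 0 h, so the lowest signal well above background was taken as its level there. By that bound Cd68 was at least 1.04-fold higher at 6 h, where 1 of 2 arrays measured it. It was at least 1.43-fold higher at 24 h and at least 2.92-fold at 72 h. By the same bound Tek was at least 2.43-fold lower at 24 h and at least 2.71-fold lower at 72 h. Both genes passed the filter only through times at which they were high, so their calls are not given. Pecam1 and Kdr were called at no time. Cyp2e1 was 0.679-fold its 0 h level at 72 h, called at that time only. The macrophage list has 6 entries, among which Adgre1 stands under both its old and new names. Only Csf1r and Cd68 of that list were tested. Their levels summed to 1.00 and 1.07 at 0 h, 1.86 and 1.98 at 6 h, 1.90 and 1.79 at 24 h, and 1.42 and 1.55 at 72 h. Most of that sum was Csf1r, since the mean log2 level of Cd68 was -6.09 at 0 h and -3.28 at 72 h. The epithelial list, summed over the 4 of 6 genes well above background on all arrays, came to 3.23 and 3.51 at 0 h, 3.44 and 3.37 at 6 h, 4.17 and 4.93 at 24 h, and 5.06 and 4.92 at 72 h. Its members moved apart at 72 h: Krt8 was 1.90-fold and Krt18 1.27-fold higher, Krt14 was 0.262-fold its 0 h level, and Krt5 was not called. The part of these markers in the results that follow was not tested.

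The 3 genes of serine synthesis were higher at 24 h and at 72 h than at 0 h. Phgdh encodes phosphoglycerate dehydrogenase, which draws 3-phosphoglycerate out of glycolysis into the serine pathway. Its level was 5.13 and 5.17 at 0 h, 5.28 and 5.25 at 6 h, 5.82 and 5.80 at 24 h, and 6.04 and 5.96 at 72 h. No value of one time fell within the range of another, and the largest step lay between 6 h and 24 h. Phgdh rose by 0.66 ± 0.05 at 24 h and by 0.84 ± 0.05 at 72 h, 1.80-fold (adjusted p = 0.000102, limma). At 6 h its difference of 0.11 ± 0.05 was not called (adjusted p = 0.174, limma).

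Psat1 encodes phosphoserine aminotransferase, the second enzyme of the route, which uses glutamate as the amino donor. Its level was 5.06 and 5.08 at 0 h, 5.19 and 5.23 at 6 h, 5.53 and 5.62 at 24 h, and 5.83 and 5.81 at 72 h. The time points again did not overlap. Psat1 rose by 0.50 ± 0.05 at 24 h and by 0.75 ± 0.05 at 72 h, 1.68-fold (adjusted p = 0.000147, limma).

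Psph encodes phosphoserine phosphatase, which releases serine in the last step. Its level was 4.0 and 4.06 at 0 h, 4.20 and 4.24 at 6 h, 4.63 and 4.69 at 24 h, and 4.89 and 4.83 at 72 h. Every later time lay above the one before it. Psph rose by 0.63 ± 0.05 at 24 h and by 0.83 ± 0.05 at 72 h, 1.77-fold (adjusted p = 0.000127, limma). Each of the 3 genes had another, dimmer probe, and those probes were higher at 72 h than at 0 h by 0.91 for Phgdh, 0.64 for Psat1 and 0.97 for Psph, all called.

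**Figure D1:**
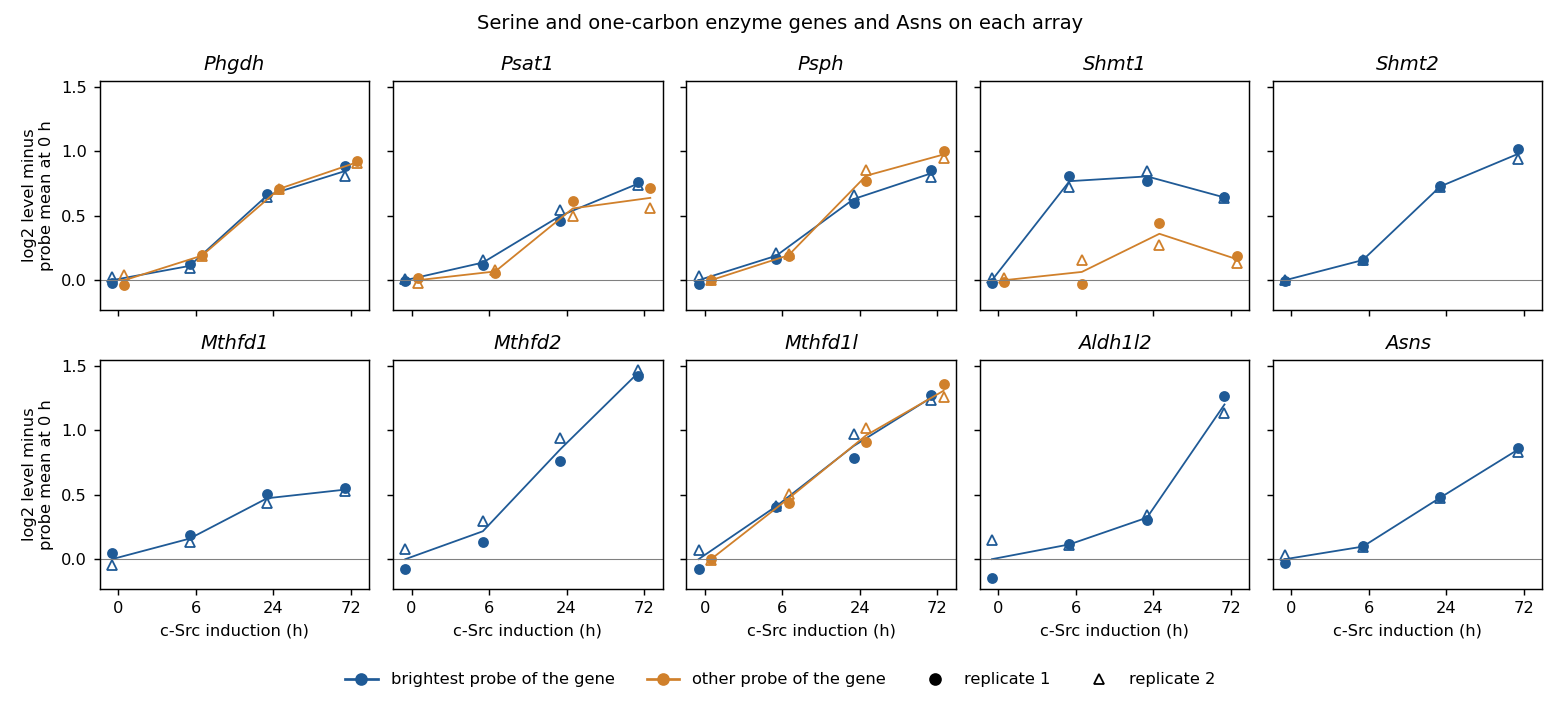
Log2 level of each probe of the 10 genes on each array, minus that probe's mean at 0 h, at 0, 6, 24 and 72 h of c-Src induction (times evenly spaced). Blue is the brightest probe of a gene and orange its other probe, filled circles and open triangles are the replicate arrays, and lines join the means. Most genes climb mainly after 6 h, Aldh1l2 mainly after 24 h, and the brighter Shmt1 probe is already 0.77 higher at 6 h while its other probe is 0.06 higher.

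Of the serine hydroxymethyltransferase genes, Shmt2 was called at 24 h and 72 h, and the brighter Shmt1 probe at all 3 later times. Shmt2, the mitochondrial enzyme, had levels of 3.27 and 3.28 at 0 h, 3.43 and 3.43 at 6 h, 4.0 and 4.0 at 24 h, and 4.29 and 4.21 at 72 h. The replicate arrays lay close together at every time, and no times overlapped. Shmt2 rose by 0.73 ± 0.05 at 24 h and by 0.98 ± 0.05 at 72 h, 1.97-fold, with adjusted p = 6.3e-05 by limma at 72 h.

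Shmt1, the cytosolic enzyme, had levels of 0.18 and 0.21 at 0 h, 1.00 and 0.92 at 6 h, 0.96 and 1.04 at 24 h, and 0.84 and 0.83 at 72 h on its brighter probe. The step was complete at 6 h, when Shmt1 had risen by 0.77 ± 0.05, 1.70-fold (adjusted p = 0.00116, limma). It stood 0.80 ± 0.05 above 0 h at 24 h and 0.64 ± 0.05 above 0 h at 72 h, and its difference of -0.16 ± 0.05 between 72 h and 24 h was not called (adjusted p = 0.0789, limma). The dimmer Shmt1 probe did not show that step. Its level was -1.88 and -1.84 at 0 h, -1.89 and -1.70 at 6 h, -1.42 and -1.59 at 24 h, and -1.67 and -1.73 at 72 h. It differed from 0 h by 0.06 ± 0.09 at 6 h (adjusted p = 0.665, limma over all probes), by 0.36 ± 0.09 at 24 h (adjusted p = 0.0227) and by 0.16 ± 0.09 at 72 h (adjusted p = 0.174).

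The 2 Shmt1 probes are shown because the early call rests on the first of them alone. The files place both on chromosome 11 of the mm9 build and pair both with the same Shmt1 transcript. Whether each lies in a coding exon or an untranslated region was not looked up, since no annotation of that build was used here. Neither probe has a marked base.
Shmt1 brighter probe, chr11:60603099-60603158: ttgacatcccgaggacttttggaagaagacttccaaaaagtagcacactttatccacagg
Shmt1 dimmer probe, chr11:60620453-60620512: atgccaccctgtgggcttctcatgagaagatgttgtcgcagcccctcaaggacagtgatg
The labels' protocol copies RNA from the poly(A) tail with an oligo-dT primer. The part of probe position in the disagreement was not tested. With the mean of both probes in place of the brighter one, Shmt1 was 0.42 higher at 6 h than at 0 h, and the call held in all 19 alternative settings. All of these settings used the brighter probe, alone or in that mean, so they do not bear on the disagreement of the probes.

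Of the folate enzymes, the mitochondrial ones had the larger differences at 72 h. Mthfd2 encodes a mitochondrial methylene-tetrahydrofolate dehydrogenase and cyclohydrolase, high in embryonic and proliferating cells. Its level was 1.65 and 1.81 at 0 h, 1.87 and 2.03 at 6 h, 2.49 and 2.67 at 24 h, and 3.15 and 3.19 at 72 h. Replicate 2 was the higher array at every time, and the times did not overlap. Mthfd2 rose by 0.85 ± 0.09 at 24 h and by 1.44 ± 0.09 at 72 h, 2.72-fold, the largest difference among the 10 genes (adjusted p = 0.00015, limma).

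Mthfd1l encodes the mitochondrial synthetase that releases formate. Its level was 3.54 and 3.69 at 0 h, 4.02 and 4.03 at 6 h, 4.40 and 4.58 at 24 h, and 4.89 and 4.84 at 72 h. It was the other gene called at 6 h, by 0.41 ± 0.08 (adjusted p = 0.0238, limma), although that call was lost in 7 of 19 alternative settings, with an adjusted p of up to 0.112. At 24 h it was 0.88 ± 0.08 and at 72 h 1.25 ± 0.08 above 0 h, 2.38-fold at 72 h. Its dimmer probe, which the files pair with another transcript of the gene, was higher by 0.47 at 6 h, 0.96 at 24 h and 1.30 at 72 h.

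Aldh1l2 encodes the mitochondrial formyl-tetrahydrofolate dehydrogenase, which oxidises the one-carbon unit to carbon dioxide and yields NADPH. Its level was 1.98 and 2.28 at 0 h, 2.25 and 2.24 at 6 h, 2.43 and 2.47 at 24 h, and 3.40 and 3.26 at 72 h. The arrays at 0 h and 6 h overlapped, and only those at 72 h stood well clear of the rest. Its difference at 24 h was 0.32 ± 0.10 and missed the threshold (adjusted p = 0.0536, limma). That difference depended on the 0 h arrays: it was 0.17 without 0 h replicate 1 and 0.47, called, without 0 h replicate 2, and 4 of 19 alternative settings called it. At 72 h it had risen by 1.20 ± 0.10, 2.29-fold. From 24 h to 72 h alone it rose by 0.88 ± 0.10 (adjusted p = 0.00602, limma), a call kept in all 19 alternative settings.

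Mthfd1 encodes a trifunctional cytosolic enzyme that interconverts the folate-bound one-carbon units. Its level was 3.37 and 3.28 at 0 h, 3.51 and 3.46 at 6 h, 3.83 and 3.76 at 24 h, and 3.87 and 3.85 at 72 h. The arrays at 24 h and 72 h lay close together. Mthfd1 rose by 0.47 ± 0.05 at 24 h and by 0.54 ± 0.05 at 72 h, 1.45-fold, the smallest difference of the 10 genes at 72 h when each gene is read on its brightest probe (adjusted p = 0.000638, limma). With the mean of a gene's probes, Shmt1 was lower still, at 0.40.

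Asns had levels of 6.22 and 6.29 at 0 h, 6.36 and 6.35 at 6 h, 6.73 and 6.73 at 24 h, and 7.12 and 7.09 at 72 h. The steps before and after 24 h were of like size, 0.38 ± 0.04 at 24 h over 6 h and 0.37 ± 0.04 at 72 h over 24 h, both called. Asns rose by 0.48 ± 0.04 at 24 h and by 0.85 ± 0.04 at 72 h, 1.80-fold (adjusted p = 7.9e-05, limma). At 6 h its difference was 0.10 ± 0.04 (adjusted p = 0.187, limma).

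The Asns promoter is shown because it was the only promoter of the group to hold the letters of the C/EBP-ATF composite element, the kind of site through which ATF4 is known to act. RefSeq promoter windows on GRCm38.p6, which run from 250 bases before to 50 bases after a gene's start, were matched for 9 of the 10 genes, and Aldh1l2 is named only. The letters TGATGNAA, searched on both strands, were in 1 of the 10 windows of these 9 genes, against 3.97% of all 32851 windows. In the stress and regulator list described further on, 6 of 22 windows held them. Those belong to 6 of 18 genes (Atf3, Chac1, Trib3, Fgf21, Nupr1 and Vldlr), and the Chac1 promoter is given for comparison. Capitals mark the match, which begins 23 bases before the start in Asns, and which in Chac1 reads as the reverse complement.
Asns, chr6:7693210-7693309, minus strand: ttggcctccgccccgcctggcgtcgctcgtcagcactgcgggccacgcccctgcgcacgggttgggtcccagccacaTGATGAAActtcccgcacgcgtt
Chac1, chr2:119351002-119351101, plus strand: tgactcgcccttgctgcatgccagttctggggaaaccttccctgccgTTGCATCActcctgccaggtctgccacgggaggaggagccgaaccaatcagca
The E-box CACGTG holds the letters bound by MYC among other factors. It was in 0 of the 10 windows of the 9 genes, in 3 of 22 windows of the stress and regulator list, and in 7.15% of all windows. A match is a description of letters in this window and not a site shown to be bound.

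Counted together, 2 of 10 genes were called higher at 6 h than at 0 h (Shmt1 and Mthfd1l), where 10.3% of all genes tested were. At 24 h 9 of 10 were called higher than at 0 h, all but Aldh1l2, against 21.4% of all genes, and at 72 h 10 of 10, against 27.5% of all genes. None was called lower, where 7.24% of all genes were at 6 h, 20.1% at 24 h and 24.6% at 72 h. As the 10 genes were chosen with earlier results of these data known, these counts are a description. The 2 arrays of a time did not overlap with those at 0 h for 9 of 10 genes at 6 h, against 62.7% of all genes, for 10 of 10 at 24 h, against 69.9%, and for 10 of 10 at 72 h, against 78.1%. The median difference from 0 h over the 10 genes was 0.16 at 6 h, 0.64 at 24 h and 0.85 at 72 h, beside 0.00, -0.02 and 0.00 over all genes. After quantile normalization the median at 6 h was 0.09. Within slide column 1, which holds replicate 1 of each time, the 72 h differences ran from 0.51 to 1.498, and within slide column 2 from 0.57 to 1.39. At 24 h they ran from 0.45 to 0.86 in column 1 and from 0.19 to 0.89 in column 2, and at 6 h from 0.13 to 0.83 and from -0.04 to 0.70, with Aldh1l2 the gene below 0. Without 1 of the arrays 0 h replicate 1, 6 h replicate 1, 6 h replicate 2, 72 h replicate 1 or 72 h replicate 2, the count at 6 h was 1. The counts at 24 h and 72 h were 9 to 10 and 10 in all 19 alternative settings.

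**Figure D2:**
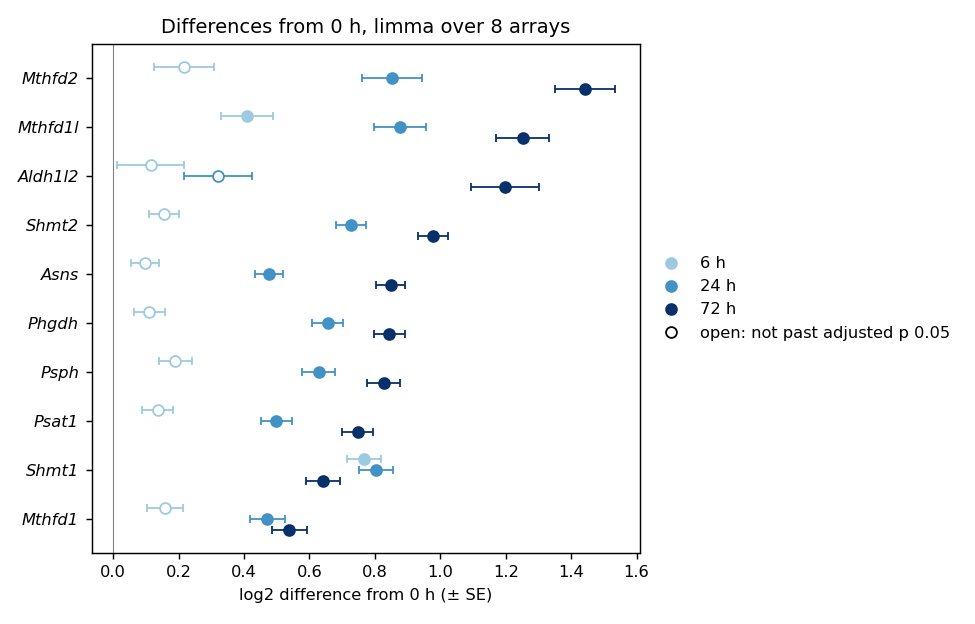
Log2 difference from 0 h (horizontal axis, with SE from limma) of the 10 genes at 6, 24 and 72 h, ordered by the difference at 72 h. Filled points are past an adjusted p of 0.05. At 72 h all 10 points are filled and run from 0.54 for Mthfd1 to 1.44 for Mthfd2, whereas at 6 h only Shmt1 and Mthfd1l are filled.

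The step from 6 h to 24 h was called for 8 of 10 genes, all upward, where 12.6% of all genes were called higher. The exceptions were Shmt1 (0.04 ± 0.05) and Aldh1l2 (0.21 ± 0.10). From 24 h to 72 h another 8 of 10 were called higher, against 10.8% of all genes, and here the exceptions were Shmt1 and Mthfd1 (0.07 ± 0.05). This count fell to 5 without either 6 h array, to 2 without 24 h replicate 1, to 2 without 72 h replicate 1 and to 3 without 72 h replicate 2. The calls of Aldh1l2 and Asns for that step were kept in all 19 alternative settings, while those of Phgdh and Psph were each lost in 11. On the dimmer probes this step was 0.08 ± 0.07 for Psat1 (adjusted p = 0.467, limma over all probes) and 0.16 ± 0.05 for Psph (adjusted p = 0.0758), neither called. Between 72 h and 6 h, 9 of 10 genes were called higher, against 22.9% of all genes, and Shmt1 was not (-0.13 ± 0.05). Arrays did not overlap for 9 of 10 genes between 24 h and 6 h (65.1% of all genes), for 10 of 10 between 72 h and 24 h (64.9% of all genes, with Shmt1 lower at 72 h) and for 10 of 10 between 72 h and 6 h (76.4% of all genes, again with Shmt1 lower).

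The share of the 72 h difference already present at 24 h set the genes in an order. It was 87.6% for Mthfd1, 77.7% for Phgdh, 75.9% for Psph, 74.3% for Shmt2, 70.0% for Mthfd1l, 66.7% for Psat1, 59.1% for Mthfd2, 56.2% for Asns and 26.9% for Aldh1l2. On the brighter Shmt1 probe it was 126%. These shares are ratios of means of 2 arrays, and the order was not tested. It depended on the probe, since the dimmer probe of Psat1 gave 87.2%, that of Psph 83.1% and that of Mthfd1l 73.5%. The dimmer Phgdh probe gave 77.5%, and that of Shmt1 gave 221% over a 72 h difference of 0.16 that was not called. For Aldh1l2 the share at 24 h was 16.5% without 0 h replicate 1 and 34.9% without 0 h replicate 2, the range over the 19 settings, and it stayed below that of the other 9 genes, whose lowest was 53.0% for Mthfd2. At 6 h the share was not stable for several genes. For Aldh1l2 it was -3.22% without 0 h replicate 1 and 19.5% without 0 h replicate 2. After quantile normalization it was -0.31% for Phgdh, 0.63% for Asns and 2.27% for Psat1, against 13.1%, 11.5% and 18.3% in the main fit.

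For paired enzymes the difference of their log2 changes since 0 h is given within slide column 1 and within slide column 2, as a description. For Shmt2 minus Shmt1 it was -0.67 and -0.55 at 6 h, -0.06 and -0.10 at 24 h, and 0.36 and 0.31 at 72 h. Mthfd2 exceeded cytosolic Mthfd1 by 0.99 and 0.81 at 72 h, and Mthfd1l exceeded Mthfd1 by 0.84 and 0.59. Mthfd2 also exceeded Mthfd2l, the gene of its mitochondrial relative, by 0.71 and 0.65 at 72 h, after a difference of -0.22 and -0.25 at 6 h. Asns and Phgdh had changed almost equally at 72 h (-0.01 and 0.02), though at 24 h Asns minus Phgdh was -0.18 in both columns. These differences were not tested. The comparison of Shmt2 with Shmt1 rests on the brighter Shmt1 probe, and its sign at 6 h and 24 h did not hold on the dimmer one. The dimmer Shmt1 probe changed by 0.06 at 6 h, 0.36 at 24 h and 0.16 at 72 h. Shmt2 changed by 0.16, 0.73 and 0.98, which was more at every time.

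**Figure D3:**
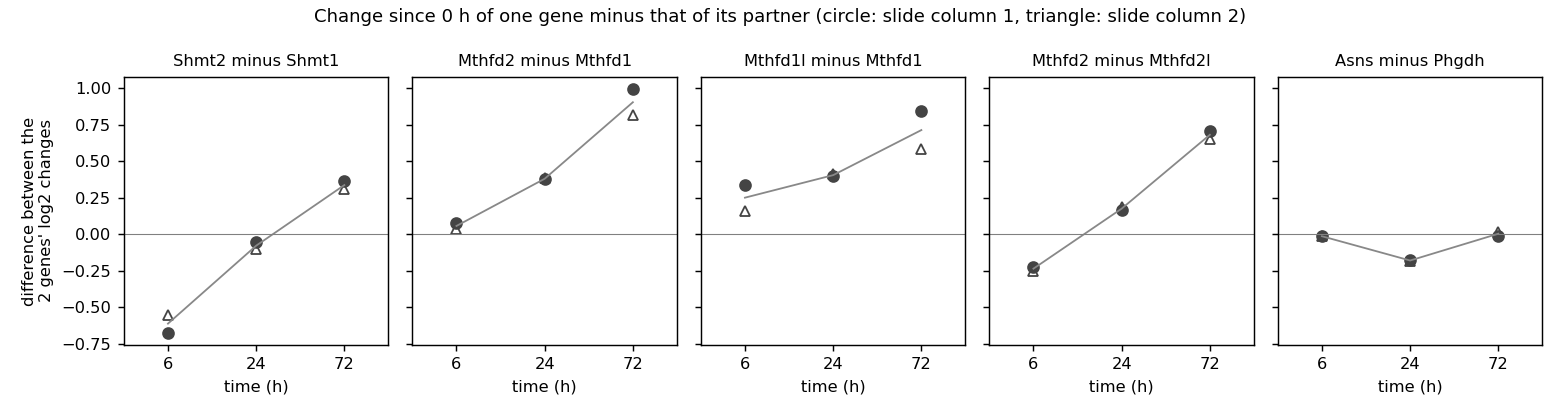
Change since 0 h of one gene minus that of its partner (log2 scale) at 6, 24 and 72 h, for 5 pairs, within slide column 1 (circles) and slide column 2 (triangles), with their mean as a line. Shmt2 minus Shmt1 crosses 0 between 24 h and 72 h on the brighter Shmt1 probe, the one drawn. On the dimmer probe Shmt1 rose less than Shmt2 at every time. Mthfd2 minus Mthfd1 climbs to 0.99 and 0.81 at 72 h, and Asns minus Phgdh stays between -0.18 and 0.02.

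Across the 8 arrays the 10 profiles were alike except for Shmt1. Pearson's r of a gene with the mean of the other 9 was 0.57 for Shmt1, 0.86 for Aldh1l2 and 0.96 to 0.995 for the other 8, a description over arrays that fall into 4 times. Among 12994 other genes with a symbol matched by accession, the 5 whose profile was most like the mean of the 10 were Hspa9 (r = 0.9986), Kctd13 (0.9974), Farsb (0.9969), Cab39l (0.9967) and Aqp5 (0.9965). At 72 h they stood 1.12, 1.41, 0.79, 0.87 and 1.38 above 0 h in that order. They were picked for likeness to a rising mean, so that they rose follows from the choice. Hspa9 encodes the mitochondrial chaperone mortalin and Farsb a subunit of phenylalanyl-tRNA synthetase.

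Other lists are read against the shares of all genes called higher (10.3% at 6 h, 21.4% at 24 h and 27.5% at 72 h) and lower (7.24%, 20.1% and 24.6%). Of 20 tested genes of 22 other folate enzymes and carriers, 4 were called higher and 1 lower at 6 h, 8 higher and 4 lower at 24 h, and 8 higher and 7 lower at 72 h, with a median of 0.13 at 72 h. Gcsh, a carrier protein of the glycine cleavage system, rose by 0.94 ± 0.05 at 24 h and stood 0.89 ± 0.05 above 0 h at 72 h. Slc25a32, the mitochondrial folate carrier, rose by 0.87 ± 0.04 at 72 h. Mtr, methionine synthase, rose by 0.76 ± 0.06, and Mthfd2l rose by 0.76 ± 0.08. Tyms, thymidylate synthase, was named after its values were seen, and at 72 h it fell by 0.57 ± 0.09.

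Purine synthesis uses formyl groups from folate, and 8 of its 12 genes were called higher and 0 lower both at 24 h and at 72 h, with 2 higher at 6 h. Atic, which takes up the second formyl group, rose by 0.71 ± 0.06 at 24 h and by 0.68 ± 0.06 at 72 h. Gart, which takes up the first, rose by 0.58 ± 0.09 at 24 h, and its difference at 72 h was 0.07 ± 0.09 (adjusted p = 0.548, limma). Pfas was 0.52 ± 0.07 higher at 24 h and Adss, which starts the branch to AMP, 0.70 ± 0.06 higher at 72 h. The medians of the list were 0.39 at 24 h and 0.30 at 72 h.

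At the branch point in glycolysis that feeds PHGDH, 6 of 8 tested genes were called higher at 24 h and 5 higher and 1 lower at 72 h. Pgk1, whose product makes 3-phosphoglycerate, rose by 0.83 ± 0.07 at 72 h. Pgam1, whose product draws 3-phosphoglycerate onward, rose by 0.37 ± 0.07 at 6 h and by 0.42 ± 0.07 at 72 h. Pkm and Ldha were highest at 24 h, by 0.53 ± 0.05 and 0.43 ± 0.05 over 0 h.

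Of 8 tested genes for transport of serine, glycine and related amino acids, 4 were called higher at 6 h and 6 at 24 h and at 72 h, with 0 lower. Slc6a9, a glycine transporter, rose by 1.23 ± 0.06 at 72 h after a difference of -0.17 ± 0.06 at 6 h that was not called. Slc3a2 and Slc7a5, the 2 chains of a transporter of large neutral amino acids, rose by 0.99 ± 0.05 and 0.72 ± 0.06 at 72 h. Slc38a1, which imports glutamine and other small neutral amino acids, rose by 0.77 ± 0.06.

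Genes around asparagine, aspartate and glutamine divided. At 72 h 7 of 10 tested genes were called higher and 2 lower, with a median of 0.29. Got1, the cytosolic aspartate transaminase, rose by 0.73 ± 0.04, and Glud1, glutamate dehydrogenase, rose by 0.61 ± 0.08. The 2 that fell were Glul, glutamine synthetase, which fell by 0.74 ± 0.04, and Slc1a3, a glutamate and aspartate transporter, which fell by 0.91 ± 0.08.

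In the methionine cycle and transsulfuration, which receive one-carbon units and serine, 3 of 9 tested genes were called higher and 3 lower at 72 h, 33.3% each way, near the 27.5% and 24.6% of all genes. Cth, cystathionine gamma-lyase, rose by 0.97 ± 0.10 at 24 h and by 1.69 ± 0.10 at 72 h. Cbs, which joins serine to homocysteine in the step before it, fell by 0.77 ± 0.09 at 72 h. Mat2b, a regulatory subunit of methionine adenosyltransferase, fell by 0.51 ± 0.05, and Adi1, of the methionine salvage pathway, rose by 0.49 ± 0.07. For synthesis of proline, alanine and related products, 6 of 9 genes were called higher at 72 h and 0 lower, after 2 lower at 6 h. Gpt2, mitochondrial alanine transaminase, rose by 0.94 ± 0.07 and Aldh18a1, of proline synthesis, by 0.86 ± 0.06. Prodh, of proline breakdown, fell by 0.25 ± 0.05 at 6 h and rose by 0.84 ± 0.05 at 72 h. Pck2, the mitochondrial PEP carboxykinase, likewise fell by 0.25 ± 0.05 at 6 h and stood 0.75 ± 0.05 higher at 72 h.

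Candidate regulators and amino acid stress genes had the largest median of the 8 lists at 72 h, 0.93, with 15 of 20 called higher and 0 lower. At 6 h 10 were called higher, and at 24 h 13 higher and 1 lower. Atf4 mRNA had levels of 7.43 and 7.66 at 0 h, 7.90 and 7.92 at 6 h, 8.04 and 8.14 at 24 h, and 8.55 and 8.58 at 72 h. It rose by 0.36 ± 0.08 at 6 h (adjusted p = 0.0379, limma), by 0.54 ± 0.08 at 24 h and by 1.02 ± 0.08 at 72 h. ATF4 is controlled largely at translation, which these arrays do not measure.

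Myc had levels of 0.52 and 0.59 at 0 h, 1.93 and 2.05 at 6 h, 2.40 and 2.55 at 24 h, and 2.59 and 2.61 at 72 h, and most of its rise was present at 6 h (1.43 ± 0.07). Ddit3, which encodes the stress factor CHOP, rose by 1.29 ± 0.08 at 24 h and by 2.40 ± 0.08 at 72 h, 5.27-fold. Trib3, a pseudokinase gene of the same stress response, rose by 0.94 ± 0.10 at 24 h and by 1.70 ± 0.10 at 72 h. Fgf21, a secreted hormone gene, was called only at 72 h (1.61 ± 0.12) among the 3 comparisons with 0 h, with a difference of 0.26 ± 0.12 at 24 h (adjusted p = 0.133, limma). All of these lists were compared with the same 2 arrays at 0 h as the 10 enzymes, so their differences from 0 h share the error of those arrays.

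**Figure D4:**
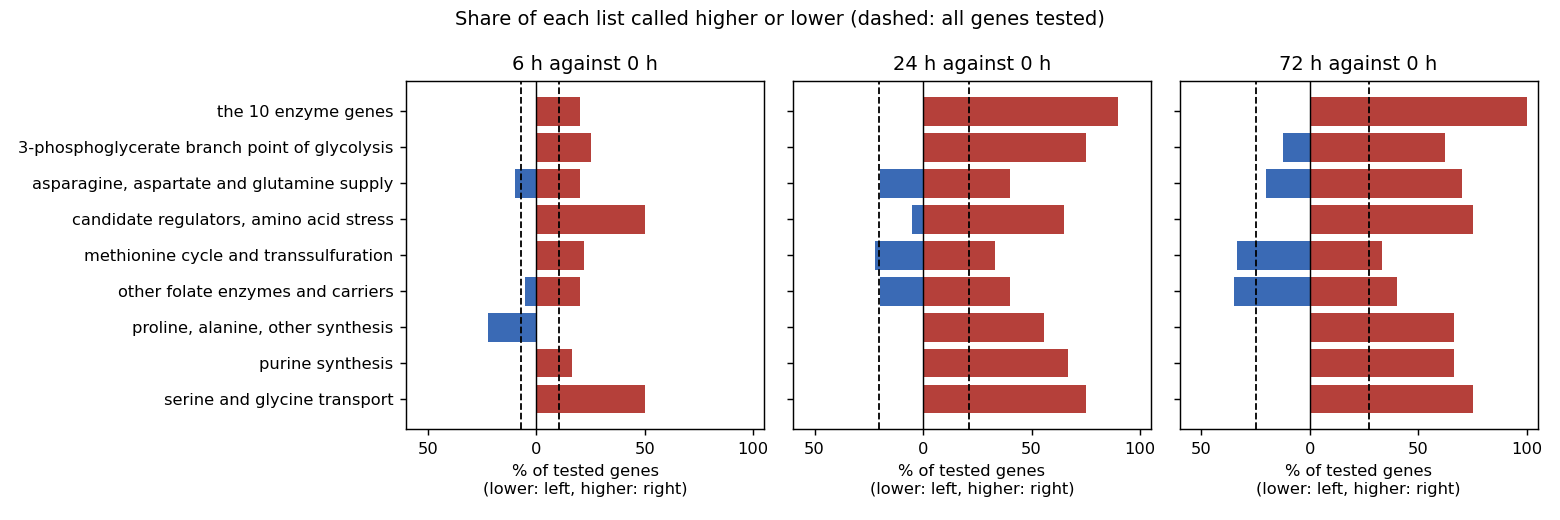
Share of the tested genes of each list called higher (red, to the right) or lower (blue, to the left) than at 0 h by limma, at 6, 24 and 72 h, with the shares over all genes as dashed lines (10.3%, 21.4% and 27.5% higher, and 7.24%, 20.1% and 24.6% lower). The 10 enzyme genes reach 100% higher at 72 h, and other folate enzymes and carriers divide into 8 higher and 7 lower of 20.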

How the data were processed

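RNA was extracted with Sepazol and labelled with Cy3 for 1-colour arrays, per the labels' protocols. Scans were quantified with Feature Extraction, version 10.5.1.1 per the file headers and 10.7.3.1 per the submitters' processing notes; the difference is unresolved. The deposited processed signal is a linear intensity, and the value table the authors deposited is that intensity after rounding (0.497% off at most).

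From these, log2 of the processed signal minus each array's 75th percentile over 59305 non-control spots was computed, outlier spots were left out and spots of a probe averaged. Probes stayed in where both arrays of some time were well above background (28609 of 55681), and the brightest kept probe stood for its gene. The test was limma (version 3.58.1, run in R 4.3.3) with 4 means over 8 arrays (4 residual degrees of freedom, prior 1.71), Benjamini-Hochberg adjustment and a threshold of 0.05. The median SE was 0.0753, and the number of arrays limits the precision. The method was tested on simulated data. Figures were made in Python 3.11.15 using matplotlib 3.10.9.

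The 10 genes and the lists were chosen with earlier results of these data known. Named are all probes of the 10 genes, Src and Csk, up to 4 genes of each other list with the largest difference among those called at 24 h or 72 h, Atf4 and Myc, and the 5 genes with the most similar profile. No set test was run. The 19 alternatives changed background correction, scaling, dim-probe filter, probe choice, input table, prior, replicate block, arrays in the fit, or left out 1 array. All arrays lay on 1 slide, with replicate number following its column. Deviations of same-numbered arrays correlated by 0.0557 to 0.171, with 2 numbers only, and the main fit did not take these arrays as pairs. Values within a slide column compare same-numbered arrays as a description, and the labels do not say that the number marks a batch. Floors for markers are the lowest signal well above background on an array, or the marker's own where higher.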

Additional observations from a re-analysis of the deposited data

How the results depend on the processing

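The counts of enzyme genes called higher at 24 h (9 to 10), 72 h (10), 24 h over 6 h (6 to 9) and 72 h over 6 h (9) stayed within 1.5 times the reported count in all 19 settings. The count at 6 h, 2 as reported, was 1 with no filter on dim probes, 6 with a trend in the prior variance, 1 with only the compared times in the fit, and 1 to 2 when each array was left out. The count at 72 h over 24 h, 8 as reported, was 2 with no filter, 3 with only the compared times and 2 to 6 when each array was left out. Genes of the other lists called higher at 6 h numbered 26 as reported, 8 with no filter, 11 with only the compared times and 11 to 24 when each array was left out. With no filter 36095 genes were tested in place of 20839. Over all genes, calls at 6 h were 2154 higher and 1508 lower as reported, 648 and 223 with no filter, 1096 and 720 with only the compared times, 803 and 415 without 6 h replicate 2, and 1805 and 2039 after quantile normalization. At 72 h over 24 h they were 2250 and 2262 as reported, 346 and 583 with no filter, 432 and 648 with only the compared times, and 406 and 676 without 72 h replicate 1. Signs turned for differences that were not called: Phgdh at 6 h (-0.0024 after quantile normalization), Aldh1l2 at 6 h (-0.034 to 0.262 when each array was left out, the lowest without 0 h replicate 1 and the highest without 0 h replicate 2), and Shmt1 at 24 h over 6 h (-0.0062 without 6 h replicate 2, -0.00075 without 24 h replicate 2, and up to 0.0806 without 6 h replicate 1). Some of these settings put fewer arrays or more genes into a fit, and others did neither. The cause of these changes was not tested.

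With the replicate block, the counts of enzyme genes called higher were 3 at 6 h, 9 at 24 h, 10 at 72 h, 8 at 24 h over 6 h, 8 at 72 h over 24 h and 9 at 72 h over 6 h, and those of the other lists 28, 55 and 60 at 6 h, 24 h and 72 h, against 26, 53 and 58 without it. The median difference of the enzyme genes at 6 h was 0.0862 after quantile normalization, against 0.16 as reported. Signals near background limit the dim genes: Cd68 reached the level well above background on 5 of 8 arrays only.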
